A study of Mus musculus with 6 samples.

Results

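The SLC25 family holds the carriers of the mitochondrial inner membrane, and its RNA was examined in mouse platelets of control and pre-AML mice. Members were all genes of the deposited table whose symbol begins with Slc25a followed by a digit, pseudogenes left out, which gave 39 of 14975 genes. Of these, 16 had a mean of at least 1 FPKM (fragments counted per kilobase of exon, scaled to the size of the library) over the 6 libraries and entered the test, and 23 were below it.

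The inner membrane of a mitochondrion is closed to charged metabolites, and SLC25 proteins carry them across it. Each is built of repeats of a module with a pair of membrane helices, and the repeats carry a conserved signature that begins with a proline and an acidic residue. The best known members exchange ADP for ATP and bring in phosphate, which the ATP synthase needs, while others carry citric acid cycle intermediates, acylcarnitines, amino acids, iron or cofactors. Platelets have no nucleus but keep mitochondria, and their own RNA is inherited from megakaryocytes.

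The libraries were 3 from controls and 3 from pre-AML mice, named here control 1 to 3 and pre-AML 1 to 3. The labels give the genotypes WT and AML on the C57BL/6 background, with no age and no week. The study used adult female mice. In the study, pre-AML stands for irradiated mice 1 week after transplantation of cells carrying the MLL-AF9 fusion oncogene, delivered with GFP by a retrovirus, and controls are irradiated mice given normal bone marrow. The labels do not tell host from graft platelets. Blood platelets were depleted of cells bearing CD45, a leukocyte marker, or Ter119, an erythroid marker, and polyA RNA was amplified with SMART-Seq2. The labels describe pools of 3 to 4 mice per sample and 2 replicates a group, whereas the methods describe independent mice, so p-values here measure the spread between these libraries. In bulk RNA, fewer cells of a type and less RNA per cell cannot be told apart.

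The sequences show how far the adenine nucleotide carriers differ from each other. These carriers share a stretch that encodes a run of arginines followed by methionines, the hallmark of this subfamily, and it is printed for the 3 members with the bases that differ from Slc25a4 in capitals (coding strand, GENCODE M21 transcripts on GRCm38, 66 bases each).

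Slc25a4: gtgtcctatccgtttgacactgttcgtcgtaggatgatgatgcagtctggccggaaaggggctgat
Slc25a5: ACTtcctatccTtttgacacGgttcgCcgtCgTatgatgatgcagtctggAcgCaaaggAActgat
Slc25a31: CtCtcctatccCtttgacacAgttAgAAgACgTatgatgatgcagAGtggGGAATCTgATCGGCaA

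The stretch spans coding bases 679 to 744 of Slc25a4 and of Slc25a5, and 718 to 783 of Slc25a31. Slc25a5 differed from Slc25a4 at 12 bases of it and Slc25a31 at 26. Over the whole coding sequence Slc25a4 and Slc25a5 were 77.5% identical, and their proteins of 298 residues were 89.6% identical. The longest run of bases the pair had in common was 20. Slc25a31 was 65.1% identical to Slc25a4 in coding sequence and 72.3% in protein. The phosphate carrier Slc25a3 was more distant, at 44.8% and 23.5%.

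The signature of the family was searched in the annotated coding frame as a proline, any residue, an acidic residue, 2 residues of any kind and a lysine or arginine. It is shown for the first match in Slc25a4, Slc25a5 and Slc25a3, with the codons of those fixed residues in capitals.

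Slc25a4: CCGatcGAGagggtcAAA
Slc25a5: CCCatcGAGagggtcAAG
Slc25a3: CCTctaGATctcattAAA

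Slc25a4 and Slc25a5 held 3 such matches each, 1 per repeat, and Slc25a3 held 2. At least 3 matches were present in 22 of the 39 members (56.4%), against 2.45% of 21475 genes with a complete coding sequence. The predicted proteins had a median of 320 residues, with a range of 274 to 677.

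The table held enough reads to measure the better expressed carriers. Reads recovered from the FPKM values summed to between 11936010 and 17778985 per library, and 3 reads on a gene of 2 kb corresponded to between 0.0643 and 0.128 FPKM. All 12 platelet markers were present in every library, with sums of 61970 FPKM in pre-AML 3 and 90548 to 114502 FPKM in the other 5. The library pre-AML 3 stood apart from the other 5. Its FPKM values summed to 376148, against 508605 to 541784 in the others, and the library size behind its FPKM values was 1.31 times its recovered reads, against close to 1 in the others (lowest 0.983). Monocyte and macrophage markers (12 genes) summed to 4665 to 5317 FPKM in controls and 4872 to 5233 FPKM in pre-AML. Lyz2 and Fcer1g were expressed in controls. The other 10 were picked for being under 1 FPKM in controls. Their sums were 0.718 to 1.32 FPKM in controls, 5.42 in pre-AML 1, 8.05 in pre-AML 2 and 273 in pre-AML 3. Of the 12 markers, 10 were highest in pre-AML 3, and Cd14 was at 0 in every control. B cell markers (9 of 11 in the table) summed to 1.06 to 2.25 FPKM in the controls and pre-AML 1, 24.9 in pre-AML 2 and 278 in pre-AML 3, and Pax5 was at 0 in the controls. T and NK cell markers (11 of 13) ranged from 19.1 to 29.0 FPKM in controls and from 34.7 to 46.5 in pre-AML, and neutrophil markers (10 of 11) from 3.16 to 3.66 and from 1.46 to 5.0, with Ly6g, Retnlg, Elane and Mpo at 0 in the controls. Erythroid markers (10 of 13) ranged from 2353 to 2655 FPKM in controls and from 2379 to 2993 in pre-AML.

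No difference of an SLC25 carrier between pre-AML and control platelets passed the test. None of the 16 tested carriers passed an adjusted p of 0.05 in either direction (limma-trend on log2(FPKM + 1), Benjamini-Hochberg over 4412 genes), where the same rule called 0.0227% of all tested genes higher and 0% lower. At an unadjusted p under 0.05, 0 carriers were higher and 1 was lower, against 2.56% and 6.53% of all tested genes. The lowest adjusted p of any carrier was 0.522.

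The summed FPKM of the 39 members was 120, 110 and 105 in controls 1 to 3 and 103, 109 and 104 in pre-AML 1 to 3. The group means were 112 ± 8.0 and 105 ± 3.11 (SD, n = 3 each, exact two-sided permutation p = 0.2, where 0.1 is the smallest p that 3 against 3 libraries allow). The groups overlapped. As a share of all summed FPKM, the family took 0.0194% to 0.0222% in 5 libraries and 0.0277% in pre-AML 3, whose total was the lowest.

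Of the 16 tested carriers, 4 lay above 0 in log2 fold change and 12 lay below it. The shares below 0 were 75% for the carriers and 58.5% for all tested genes, and the medians were -0.12 and -0.055. When the libraries were rescaled to an equal summed FPKM, the median of all tested genes moved by 0.14, from -0.055 to 0.081, and the carriers divided into 8 above and 8 below 0 with a median of 0.023. With quantile normalization, 6 carriers lay above and 10 below 0, and the medians were -0.12 for the carriers and -0.033 for all tested genes. The lean towards lower values in pre-AML thus depended on the scaling used. Relative to the median of all genes, the carriers' median was -0.06 on the deposited scale. It was -0.057 after rescaling to an equal summed FPKM and -0.086 with quantile normalization. On the deposited scale without control 1 it was 0.0066, as the members' median then stood at -0.046. Without pre-AML 1 it was 0.018, with a members' median of -0.056. Per library, the median log2 ratio of the 16 carriers to the control mean was 0.093, -0.043 and -0.03 in controls 1 to 3 and -0.16, -0.13 and -0.14 in pre-AML 1 to 3. The control values centre near 0 because each gene's ratio is to its own control mean. Medians per library over all tested genes are not given beside them, so these values are no separate support for a group difference.

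The intervals give the size of change that the spread between libraries allows on the deposited scale. They do not cover the choice of scaling or of GC and length correction. The differences ran from -0.39 to 0.29 on the log2(FPKM + 1) scale, and their 95% intervals together reached from -0.77 to 0.74. All 16 intervals lay inside a 2-fold change in either direction on that scale, which understates the change of low genes, as did those of 88.6% of all tested genes. Smaller changes were not resolved by 3 libraries a group. Among all tested genes the log2 fold change correlated with the gene's GC content (Spearman 0.55 over 4397 genes of the same 6 libraries, across genes, which are not independent replicates), and the tested carriers ranged from 42.5% to 60.6% GC. Removing the GC and length trends turned the direction of Slc25a4, Slc25a20, Slc25a17 and Slc25a39, and those values are given beside the genes.

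**Figure D1:**
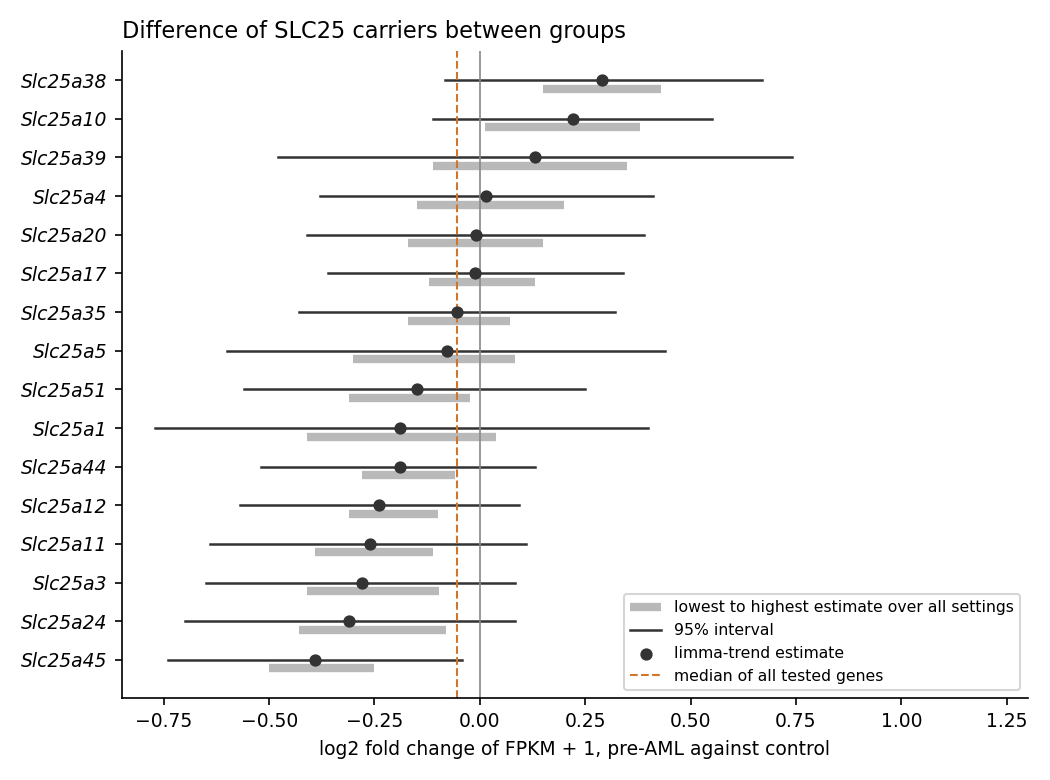
Log2 fold change of FPKM + 1 between pre-AML and control platelets (horizontal axis) for the 16 tested SLC25 carriers, with the 95% interval of the limma-trend fit as a thin line and the lowest to highest estimate over all settings tried as a grey bar. Only the interval of Slc25a45, from -0.74 to -0.043, leaves out 0, and the dashed line marks the median of all tested genes at -0.055.

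The adenine nucleotide carriers exchange matrix ATP for cytosolic ADP, and neither of the 2 tested members passed the test between groups. Slc25a4 (Entrez 11739, chr8:46206797-46211284, minus strand, GRCm38), the isoform of heart and skeletal muscle, had the highest mean FPKM of the family and ranked 1090 among the 14975 genes. Its levels were 19.4, 15.9 and 16.2 FPKM in controls 1 to 3 and 16, 21.9 and 14.7 FPKM in pre-AML 1 to 3. The highest and the lowest value were both pre-AML libraries, and the groups overlapped. The means were 17.2 ± 1.90 and 17.5 ± 3.79 FPKM (SD, n = 3 each), a log2 fold change of 0.015 (SE 0.17, 95% interval -0.38 to 0.41, limma adjusted p = 0.978). The direction turned to -0.054 with the GC and length trends removed.

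Slc25a5 (Entrez 11740, chrX:36795651-36798807, plus strand), the isoform found in most dividing tissues, measured 12.0, 11.8 and 7.20 FPKM in controls and 8.49, 8.13 and 12.4 FPKM in pre-AML. The lowest value was control 3 and the highest pre-AML 3, so the groups overlapped over their range. The means were 10.3 ± 2.73 and 9.68 ± 2.38 FPKM, a log2 fold change of -0.078 (SE 0.23, 95% interval -0.60 to 0.44, limma adjusted p = 0.901). After rescaling to an equal summed FPKM it was 0.083, and with the GC and length trends removed it was -0.061. Its values are less certain than those of Slc25a4, because 7 annotated pseudogenes were at least 90% identical to it over at least 50% of its coding sequence, and how such reads were counted is not given in the sources used here.

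Slc25a31, the isoform of the testis, was near the limit of detection. Control 1 held 2 of its reads (0.0801 FPKM) and pre-AML 2 held 4 (0.125 FPKM), and it was listed at 0 in the other 4 libraries. Nearly all adenine nucleotide carrier RNA thus came from Slc25a4 and Slc25a5, which are the pair aligned in the sequences above.

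The ratio of Slc25a4 to Slc25a5 within a library does not depend on how the library was scaled. It was 1.61, 1.35 and 2.25 in controls and 1.89, 2.69 and 1.19 in pre-AML, so Slc25a4 had the higher FPKM in every library. On the log2 scale the means were 0.76 ± 0.38 and 0.86 ± 0.59 (SD, n = 3 each), a difference of 0.099 with overlapping groups (exact two-sided permutation p = 0.8). The difference ran from -0.18 without pre-AML 2 to 0.41 without pre-AML 3, and was -0.067 without control 2. The other pairs planned for this comparison, Slc25a37 to Slc25a28 and Slc25a12 to Slc25a13, were not formed. Slc25a28 was at 0 in every control and in pre-AML 1 and 2. Slc25a13 was above 0 in every library, but from only 5, 3 and 2 reads in controls and 1, 2 and 23 in pre-AML. The planned adjustment of p over all these ratios was therefore not made.

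The phosphate carrier Slc25a3 (Entrez 18674, chr10:91116574-91124059, minus strand) brings inorganic phosphate into the matrix together with a proton. It measured 17.6, 15.6 and 15 FPKM in controls and 12.6, 15.8 and 11.0 FPKM in pre-AML, from 7033 recovered reads in all. Pre-AML 1 and 3 were below every control, whereas pre-AML 2 was above controls 2 and 3, so the groups overlapped. The means were 16.1 ± 1.34 and 13.1 ± 2.44 FPKM, a log2 fold change of -0.28 (SE 0.16, 95% interval -0.65 to 0.083, limma adjusted p = 0.534, exact permutation p = 0.3). It stayed below 0 in all 17 alternative settings, and was -0.097 with the GC and length trends removed. As a share of carrier FPKM, Slc25a3 took 14.4 ± 0.181% in controls and 12.4 ± 1.97% in pre-AML (exact permutation p = 0.3).

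The order of these carriers depended on the gene length used, a choice added after the data were seen. The deposited values divide by all annotated exons, which make up 5550 bases for Slc25a3 against 1341 bases for its coding transcript. As an alternative, the same reads were divided by the length of that transcript, the one with the longest complete coding sequence. Slc25a3 then had the highest value of the tested members, with a mean of 60.4. It was followed by Slc25a20 with 27.7, Slc25a4 with 21.2, Slc25a10 with 17.5 and Slc25a5 with 13.3. The values of Slc25a20 did not come out as whole reads at its exon length, so its 27.7 and its place are less certain. Per kilobase of all exons, the means were 14.6, 10.2, 17.4, 10.2 and 10 FPKM in the same order. Slc25a4 and Slc25a3 overlapped between libraries on the deposited scale. Divided by the transcript length they did not, with Slc25a3 from 45.5 to 72.7 and Slc25a4 from 18 to 26.7. Reads on exons outside the coding transcript stay in these values. They are therefore upper limits, and the order per transcript is not settled. Fold changes between groups are not touched by this choice on a scale without a pseudocount.

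**Figure D2:**
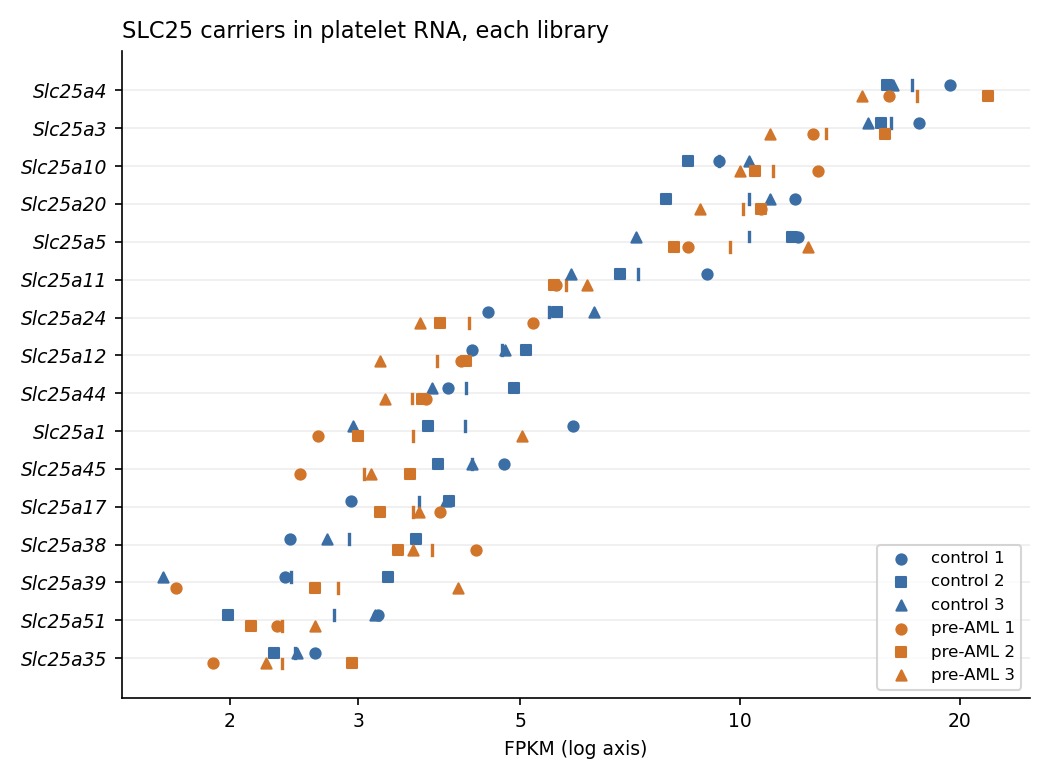
FPKM on a log axis for the 16 SLC25 carriers with a mean of at least 1 FPKM, each point a library (blue control, orange pre-AML) and each vertical tick a group mean. Slc25a4 and Slc25a3 lie highest, and the groups do not overlap for Slc25a12, Slc25a44 and Slc25a45 alone.

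The ATP-Mg/phosphate carriers, which set the size of the matrix adenine nucleotide pool in answer to calcium, were represented by Slc25a24 (Entrez 229731, chr3:109123149-109168457, plus strand). Its levels were 4.52, 5.61 and 6.32 FPKM in controls and 5.21, 3.88 and 3.65 FPKM in the pre-AML libraries. Pre-AML 2 and 3 were below every control and pre-AML 1 was above control 1. The means were 5.48 ± 0.907 and 4.25 ± 0.844 FPKM, a log2 fold change of -0.31 (SE 0.17, 95% interval -0.70 to 0.084, limma adjusted p = 0.531). With the GC and length trends removed it was -0.08. Of its relatives, Slc25a25 was between 0.129 and 0.416 FPKM, and Slc25a23 was listed above 0 in pre-AML 3 alone, with 4 reads.

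The di- and tricarboxylate carriers link the citric acid cycle with the cytosol, and all 3 members were tested. Slc25a10 (Entrez 27376, chr11:120491840-120499187, plus strand), the dicarboxylate carrier that exchanges malate or succinate for phosphate, measured 9.35, 8.49 and 10.3 FPKM in controls and 12.8, 10.5 and 10 FPKM in the pre-AML libraries. The first and second of these were above every control and the last was below control 3. The log2 fold change was 0.22 (SE 0.15, 95% interval -0.11 to 0.55, limma adjusted p = 0.560) between means of 9.37 ± 0.885 and 11.1 ± 1.47 FPKM, and it was 0.012 with the GC and length trends removed. An antisense gene, Gm11788, shares 228 of its 3455 exon bases, and whether the counting used strand is not given.

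Slc25a11 (Entrez 67863, chr11:70644196-70647479, minus strand), the oxoglutarate carrier of the malate-aspartate shuttle, measured 9.0, 6.84 and 5.87 FPKM in controls and 5.6, 5.57 and 6.17 FPKM in pre-AML. The groups overlapped only in that pre-AML 3 was above control 3. The means were 7.24 ± 1.6 and 5.78 ± 0.337 FPKM, a log2 fold change of -0.26 (SE 0.16, 95% interval -0.64 to 0.11, limma adjusted p = 0.553). It was -0.12 without control 1, -0.39 without control 3 and also -0.39 with the GC and length trends removed. It shares 189 of 2120 exon bases with Rnf167 on the opposite strand.

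Slc25a1, the citrate carrier that supplies acetyl units for lipid synthesis, followed Slc25a39 as the least precise of the tested members, at 4.20 ± 1.53 FPKM in controls and 3.56 ± 1.29 in pre-AML (log2 fold change -0.19, SE 0.26, limma adjusted p = 0.775). Control 1 was highest at 5.91 FPKM, and pre-AML 1 lowest at 2.64 FPKM. With the GC and length trends removed, the log2 fold change of Slc25a1 was -0.40. Together the 3 carriers made up 18.6 ± 1.42% of carrier FPKM in controls and 19.4 ± 1.67% in pre-AML (exact permutation p = 0.5).

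Slc25a20 (Entrez 57279, chr9:108662088-108684641, plus strand) is the carnitine/acylcarnitine carrier, through which fatty acids enter the matrix for oxidation. It measured 11.9, 7.91 and 11.0 FPKM in controls and 10.7, 10.7 and 8.82 FPKM in pre-AML. The lowest and the highest value were both controls. The means of 10.3 ± 2.10 and 10.1 ± 1.10 FPKM gave a log2 fold change of -0.01 (SE 0.17, 95% interval -0.41 to 0.39, limma adjusted p = 0.987), which was 0.046 with the GC and length trends removed and 0.15 after rescaling to an equal summed FPKM. It was the tested member whose values did not come out as whole reads.

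The amino acid carriers included 3 tested members that did not move as a set. Slc25a38 (Entrez 208638, chr9:120110374-120124504, plus strand), the glycine carrier needed for the first step of haem synthesis, had the highest log2 fold change of the tested carriers. Its levels were 2.42, 3.60 and 2.72 FPKM in controls and 4.35, 3.40 and 3.57 FPKM in the pre-AML libraries. Pre-AML 1 was above every control, and control 2 was above the other pre-AML libraries. The means were 2.91 ± 0.611 and 3.78 ± 0.505 FPKM, a log2 fold change of 0.29 (SE 0.16, 95% interval -0.083 to 0.67, limma adjusted p = 0.532). With the GC and length trends removed it was 0.15.

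Slc25a12, an aspartate/glutamate carrier of the malate-aspartate shuttle, measured 4.29, 5.10 and 4.77 FPKM in controls and 4.15, 4.21 and 3.21 FPKM in pre-AML. Slc25a44, a carrier of branched-chain amino acids, measured 3.98, 4.91 and 3.78 FPKM in controls and 3.72, 3.67 and 3.26 FPKM in pre-AML. Neither gene's groups overlapped, and neither passed the test over all genes, with log2 fold changes of -0.24 and -0.19 and limma adjusted p of 0.549 and 0.595. With the GC and length trends removed, the log2 fold changes were -0.13 and -0.28. In all, the groups of 3 tested carriers did not overlap with pre-AML lower, and of 0 with pre-AML higher, where the shares over all tested genes were 12.8% and 6.14%. With 16 carriers, a count of 3 is close to that background, as is 1 at an unadjusted p under 0.05.

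The third carrier without overlap was Slc25a45 (Entrez 107375, chr19:5877808-5885878, plus strand), a less characterised member related to the carnitine carrier branch, and it was also the single one with an unadjusted p under 0.05. It measured 4.75, 3.86 and 4.29 FPKM in controls and 2.5, 3.53 and 3.12 FPKM in pre-AML. Every pre-AML library was below every control, with control 2 and pre-AML 2 nearest to each other. The means were 4.30 ± 0.445 and 3.05 ± 0.516 FPKM, a log2 fold change of -0.39 (SE 0.15, 95% interval -0.74 to -0.043). The limma p was 0.0318 before adjustment and 0.522 after it, and the exact permutation p was 0.1, the smallest possible. The gene was below 0 in every setting in which it was tested, from -0.25 after rescaling to an equal summed FPKM to -0.50 with the GC and length trends removed.

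Slc25a39 (Entrez 68066, chr11:102402985-102407946, minus strand), which brings glutathione into the matrix, had the largest SE of the tested carriers. It measured 2.38, 3.30 and 1.62 FPKM in controls and 1.69, 2.62 and 4.11 FPKM in pre-AML. The highest value was pre-AML 3, the next control 2, and the groups overlapped. The means were 2.43 ± 0.843 and 2.81 ± 1.22 FPKM, a log2 fold change of 0.13 (SE 0.27, 95% interval -0.48 to 0.74, limma adjusted p = 0.855), which was -0.11 without pre-AML 3 and -0.08 with the GC and length trends removed. Its paralog Slc25a40 was at most 0.114 FPKM.

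The remaining tested members were Slc25a17, the peroxisomal carrier of coenzymes, Slc25a51, which brings NAD into the matrix, and Slc25a35, whose substrate is not settled. Their log2 fold changes were -0.011, -0.15 and -0.054 (limma adjusted p = 0.983, 0.722 and 0.906), and their groups overlapped. With the GC and length trends removed, Slc25a17, Slc25a51 and Slc25a35 were at 0.13, -0.084 and -0.13. Slc25a51 has 1 pseudogene at least 90% identical to it over at least 50% of its coding sequence. It also shares 125 of its 5510 exon bases with the miRNA gene Gm25692 on the same strand. Slc25a35 shares 1151 of its 3677 exon bases with Rangrf on the opposite strand.

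The family's make-up was also read by what its members carry. The 6 members with the highest means, Slc25a4, Slc25a3, Slc25a10, Slc25a20, Slc25a5 and Slc25a11, made up 60.7% to 66.6% of carrier FPKM in every library. Adenine nucleotide carriers took 24.6 ± 1.98% in controls and 25.8 ± 1.96% in pre-AML (SD, n = 3 each, exact permutation p = 0.6). That difference of 1.22 percentage points ran from 0.104 without control 3 to 2.26 without pre-AML 1. Amino acid carriers took 10.8 ± 1.74% and 11.0 ± 0.903% (exact permutation p = 1). The ATP-Mg/phosphate carriers took 5.18 ± 1.19% and 4.32 ± 0.815% (exact permutation p = 0.3). Nucleotide and cofactor carriers took 3.88 ± 0.251% and 3.81 ± 0.945%, and glutathione carriers 2.22 ± 0.804% and 2.69 ± 1.18%. Each of these 5 differences was smaller than the larger SD of its pair. The share of the phosphate carrier, given above, was lower in pre-AML by more than the control SD and by about the pre-AML SD, and that of the uncoupling protein relatives, given with the low members, did not overlap. The other or little characterised members took 10.5 ± 0.847% and 9.62 ± 0.196% (exact permutation p = 0.3), and none of the 11 groups could pass 0.05 with 3 libraries a side.

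**Figure D3:**
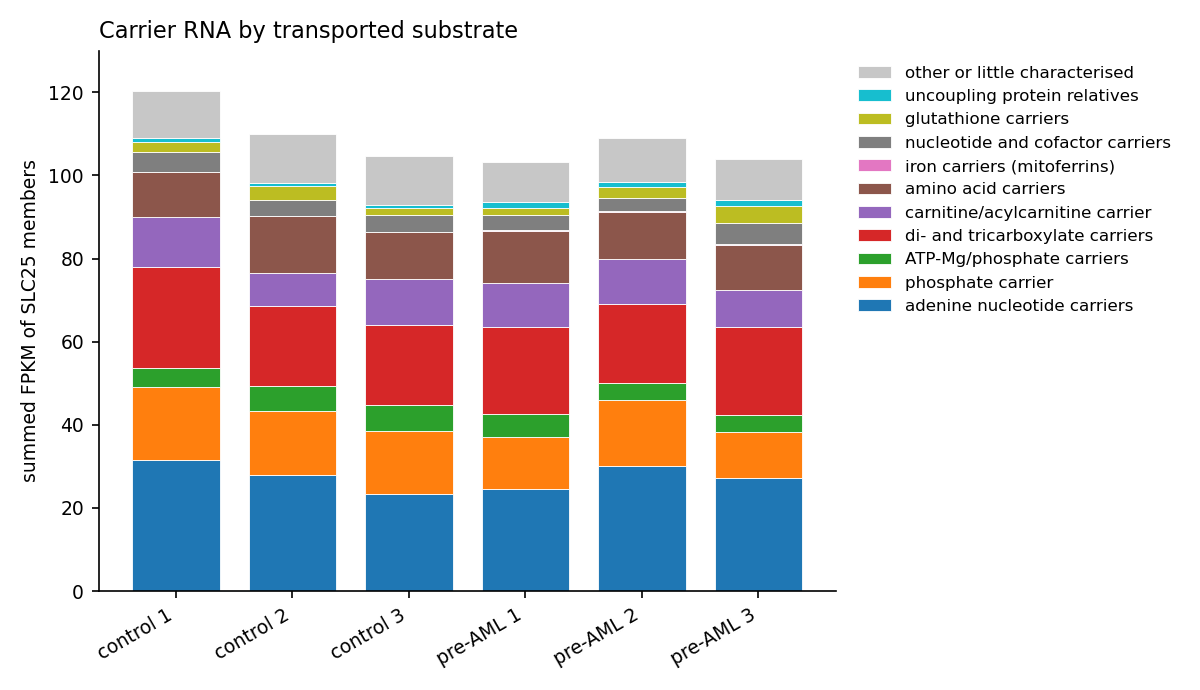
Summed FPKM of the 39 SLC25 members in each library, stacked by transported substrate, as bars that start at 0. The bars stand between 103 and 120 FPKM, and the adenine nucleotide, phosphate, and di- and tricarboxylate carriers fill more than any other part in all 6 libraries.

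The 23 members under a mean of 1 FPKM had means from 0.00540 to 0.765 FPKM and together made up 2.96% to 6.19% of carrier FPKM, the highest share being that of pre-AML 3. Of them, 11 were above 0 in every library and 12 were listed at 0 in at least 1. Slc25a46, a protein of the outer membrane that acts in mitochondrial fission, was between 0.501 and 1.09 FPKM.

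The mitoferrins, which carry iron for haem and iron-sulphur cluster synthesis, were hardly detected. Slc25a37, the mitoferrin of erythroid cells, was listed at 0, 0.0472 and 0 FPKM in controls and at 0.0375, 0.231 and 0.228 FPKM in pre-AML, from 0, 4, 0, 3, 21 and 32 reads. Pre-AML 2 and 3 were above every control and pre-AML 1 was below control 2, so the groups overlapped. Slc25a28, the mitoferrin of other tissues, was listed at 0 in 5 libraries and at 0.103 FPKM in pre-AML 3, from 9 reads. Erythroid markers that were under 1 FPKM in controls (6 genes) summed to 1.27, 2.04 and 1.04 FPKM in controls and 0.582, 3.71 and 1.70 FPKM in pre-AML, and their part in the Slc25a37 values was not tested.

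Among the 23 low members, the groups of 3 did not overlap with pre-AML higher and of 0 with pre-AML lower, where the shares over 10563 genes under 1 FPKM were 8.11% and 2.80%. These 3, singled out after their values were seen, were Slc25a14, Slc25a22 and Slc25a15. Slc25a14, a relative of the uncoupling proteins, measured 0.324, 0.361 and 0.355 FPKM in controls and 0.604, 0.729 and 0.689 FPKM in pre-AML, from 9, 12 and 10 reads and 19, 26 and 38 reads. Its pre-AML libraries lay close together and apart from the controls. Markers picked for being under 1 FPKM in controls were also without overlap for T and NK cells (10 genes) and for monocytes and macrophages (10 genes). The T and NK cell sums were 0.236, 0.823 and 0.205 FPKM in controls and 12.8, 6.80 and 23.9 FPKM in pre-AML. The monocyte and macrophage sums were 0.718, 1.32 and 1.03 FPKM in controls and 5.42, 8.05 and 273 FPKM in pre-AML. Low control sums follow from that choice, and B cell, neutrophil and erythroid markers picked likewise overlapped. The part of these cells in the Slc25a14 values was not tested.

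Together with Slc25a30, the other uncoupling protein relative, Slc25a14 summed to 0.809, 0.547 and 0.760 FPKM in controls and 1.28, 1.02 and 1.24 FPKM in pre-AML. That is 0.632 ± 0.119% of carrier FPKM in controls and 1.1 ± 0.164% in pre-AML, with no overlap (exact permutation p = 0.1, the smallest possible). Both genes were under the filter and were not tested over all genes. Slc25a30 alone measured 0.485, 0.187 and 0.404 FPKM in controls and 0.674, 0.290 and 0.553 FPKM in pre-AML, and its groups overlapped. The sum includes Slc25a14, which was singled out after its values were seen, so its p is no separate support.

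Slc25a22, a glutamate carrier, was listed at 0, 0 and 0.0621 FPKM in controls and 0.111, 0.0653 and 0.570 FPKM in pre-AML, so most of its signal was in pre-AML 3. Slc25a15, the ornithine carrier of the urea cycle, rested on 0, 0 and 3 reads in controls and 9, 6 and 7 in pre-AML. Of the 23 low members, 9 were highest in pre-AML 3 (39.1%), the library with the raised leukocyte markers, against 43.2% of the 10563 low genes. Of the 16 tested members, 2 were highest in pre-AML 3, against 18.7% of the tested genes. The part of leukocyte RNA in the low members' values was not tested.

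**Figure D4:**
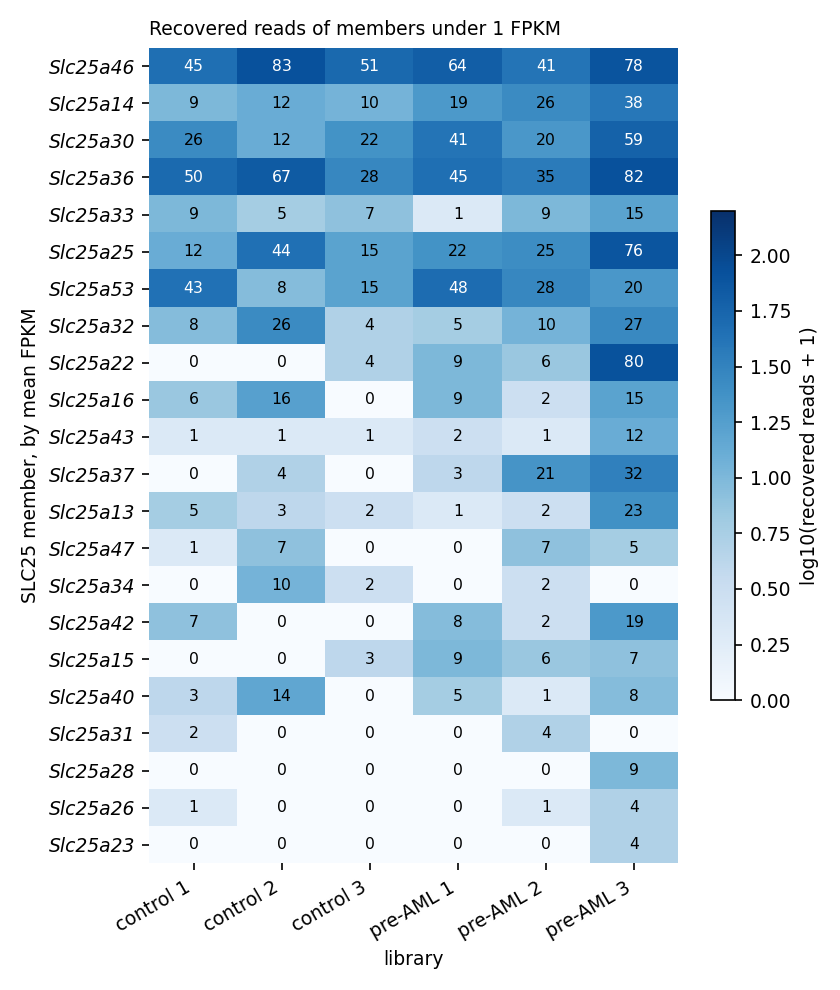
Reads recovered for 22 of the 23 SLC25 members under a mean of 1 FPKM (vertical axis, by mean) in each library (horizontal axis), printed in each cell and coloured by log10 of reads + 1. The counts run from 0 to 83 and are not scaled to depth, which was highest in pre-AML 3. Slc25a22, Slc25a43, Slc25a13, Slc25a28, Slc25a23, Slc25a26, Slc25a37 and Slc25a42 have most of their reads in that library.

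Genes around the carriers were read from lists of the same pathway. Family members with other names numbered 5 in the table, and 2 were tested. Ucp2, the uncoupling protein of blood cells, measured 21.6, 19.5 and 18.5 FPKM in controls and 21.1, 23.9 and 33.1 FPKM in pre-AML, above the mean of every Slc25a member per kilobase of all exons. Pre-AML 2 and 3 were above every control and pre-AML 1 was below control 1. Its log2 fold change was 0.35 (SE 0.18, limma adjusted p = 0.524). Mtch2, an insertase of the outer membrane, had -0.24 (limma adjusted p = 0.555).

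Carriers reach the inner membrane through the receptor TOM70, the small TIM chaperones and the TIM22 complex. Of the 10 genes of this route, 5 were tested, 4 of them above 0 and 1 below, with a median of 0.18, and none passed the adjusted test. Among all tested genes, 41.5% lay above 0 and 58.5% below it. Timm13, a small TIM chaperone, had a log2 fold change of 0.57 (SE 0.25, limma adjusted p = 0.522) and was the gene of the route with an unadjusted p under 0.05. Over all tested genes, 2.56% were higher at that unadjusted p. Timm13 measured 1.80, 3.63 and 2.02 FPKM in controls and 3.23, 3.53 and 5.72 FPKM in pre-AML, and control 2 lay within the range of pre-AML.

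The other transporters of the inner membrane (12 genes, 5 tested) had 3 above and 2 below 0, a median of 0.094 and none past the adjusted test. Sfxn1, the serine carrier of the sideroflexin family, was more abundant than any Slc25a member per length of exon, at 64.1 ± 3.67 FPKM in controls and 71.8 ± 8.31 in pre-AML. Ghitm of the same list was higher still, at 156 ± 10.7 and 126 ± 24.9 FPKM. Their log2 fold changes were 0.16 for Sfxn1 and -0.32 for Ghitm (limma adjusted p = 0.642 and 0.526). The ATP synthase, which uses the ADP and phosphate that Slc25a4, Slc25a5 and Slc25a3 bring in, had all 16 listed genes tested, 5 above and 11 below 0, with a median of -0.13 beside -0.12 for the carriers and -0.055 for all tested genes. None passed the adjusted test, and 58.5% of all tested genes lay below 0. Its single gene with an unadjusted p under 0.05 was Atp5g2, which, like Atp5g1 and Atp5g3, encodes the subunit of the membrane ring. The log2 fold change of Atp5g2 was 0.60 (SE 0.21, limma adjusted p = 0.522), where 2.56% of all tested genes were higher at that unadjusted p. Its means were 1.59 FPKM in controls and 2.85 FPKM in pre-AML. Atp5g3 was more abundant, with means of 12.3 and 10.1 FPKM, and went the other way, with a log2 fold change of -0.23. Atp5g1 had means of 1.08 and 1.65 FPKM and a log2 fold change of 0.35. The value of Atp5g2 therefore does not stand for the ring subunit's RNA as a whole.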

How the data were processed

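Platelet polyA RNA was measured in 3 control and 3 pre-AML libraries, and all 6 columns were mapped to samples by name. The deposited table holds FPKM values, which the authors made from reads mapped to mm10, with STAR and DESeq2 named in the submitters' processing notes and the study's methods. The counting program and annotation are not given in the sources used here. Reads were recovered with GENCODE M21 exon lengths: 81.3% of values above 0 came out whole (tolerance 0.01 reads), for 12193 genes in every library and for 34 of the 39 carriers. FPKM was therefore read as per kilobase of all annotated exons. Coordinates are those of GENCODE M21 on GRCm38.

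The 4412 genes that averaged 1 FPKM or more over the libraries were fitted with limma-trend (limma 3.58.1, R 4.3.3) on log2(FPKM + 1) with no covariates, and p-values were adjusted over all of them, with a threshold of 0.05. The pseudocount understates the change of low genes. Exact two-sided permutation tests used the 3 against 3 libraries. The script was tested on simulated data. Sequences were read from GENCODE M21 and aligned with mafft 7.526, and near copies were sought with blastn 2.17.0 (pseudogenes).

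Values in every library were given by rule for the adenine nucleotide and phosphate carriers, the 6 highest members, the 3 with the smallest p in each direction and the mitoferrins. Slc25a12, Slc25a44, Slc25a14, Slc25a22, Slc25a15, Ucp2 and Timm13 were added after their values were seen. The members, groups and lists were chosen with earlier results of these data known. The alternatives covered the filter, the pseudocount, rescaling, quantile normalization, array weights, GC and length trends, a replicate block, limma-voom on recovered reads and leaving out each library. The values of 1 low member are not reported here by name.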

Additional observations from a re-analysis of the deposited data

How the results depend on the processing

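No SLC25 carrier passed the adjusted threshold under any of the 17 alternatives, and the lowest adjusted p any carrier reached was 0.332. Of 262 estimates of single carriers under these alternatives, 229 had the direction of the reported value and 33 the opposite one, and Slc25a3, Slc25a10, Slc25a11, Slc25a24, Slc25a12, Slc25a44, Slc25a45, Slc25a38 and Slc25a51 turned under none. The cause of the changes listed next was not tested. Over all genes, 1 was called as reported, 0 with no filter on low values, with a mean of at least 5 FPKM, with a pseudocount of 0.1 and no filter, with an equal summed FPKM and by limma-voom on recovered reads, 2 with array weights, and 0 to 2 with a library left out. At an unadjusted p under 0.05, 28.2% of called genes were higher as reported, and the share ran from 18.4% among genes averaging 5 FPKM or more and 22% by limma-voom, over 39.9% with quantile normalization, 40.2% with array weights, 57.1% with no filter and 58.6% with an equal summed FPKM, to 60.9% with a pseudocount of 0.1 and no filter. The number of carriers at that unadjusted p was 1 as reported and 0 to 2 otherwise. The carriers' median was -0.044 with a mean of at least 5 FPKM (6 members), 0.023 with an equal summed FPKM, and -0.15 to -0.046 with a library left out. The log2 ratio of Slc25a4 to Slc25a5 ranged from -0.18 to 0.41 with a library left out. Opposite directions were found for Slc25a20 (0.038) and Slc25a17 (0.0019) with quantile normalization, for Slc25a20 (0.093), Slc25a39 (-0.0093) and Slc25a35 (0.056) with array weights, for Slc25a4 (-0.054), Slc25a20 (0.046), Slc25a17 (0.13) and Slc25a39 (-0.08) with GC and length trends removed, with or without the replicate block, and for Slc25a20 (0.15), Slc25a5 (0.083), Slc25a17 (0.13) and Slc25a35 (0.071) with an equal summed FPKM. With a library left out, the log2 fold change ran from -0.15 to 0.12 for Slc25a4, -0.17 to 0.098 for Slc25a20, -0.30 to 0.036 for Slc25a5, -0.41 to 0.038 for Slc25a1, -0.12 to 0.049 for Slc25a17, -0.11 to 0.35 for Slc25a39 and -0.17 to 0.046 for Slc25a35. With no turn of direction it ran from -0.41 to -0.17 for Slc25a3, -0.39 to -0.12 for Slc25a11, 0.12 to 0.28 for Slc25a10, -0.30 to -0.14 for Slc25a12, -0.25 to -0.10 for Slc25a44 and -0.31 to -0.071 for Slc25a51. Replicate numbers did not pair the libraries (correlations of deviations -0.04, -0.12 and -0.17, and no library matched its own number best). With the replicate block, 1 gene was called, the carriers' median was -0.12 and the lowest adjusted p of a carrier was 0.594. Dividing the same reads by the coding transcript length was an alternative chosen after seeing the data. Mean values then moved most for Slc25a3, from 14.6 to an upper limit of 60.4. Depth limits the 23 low members, many of which rest on a few reads.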
